A study of Bos taurus with 2 samples.

Results

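The WNT, FGF and BMP families of secreted signalling proteins were read out in single cells of the bovine mammary gland. Their members were chosen by symbol: WNT with a number and an optional A or B, FGF with a number, or BMP with a number and an optional letter. This rule took 51 of the 27270 genes in the table, 19 WNT, 21 FGF and 11 BMP symbols, and used no measured value. Some of the symbols do not encode ligands of these pathways. BMP1 is a protease that trims procollagen, BMP2K is a kinase, and FGF12, FGF13 and FGF14 are intracellular proteins of neurons. They were kept because the rule holds them, and are described apart.

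WNT proteins bind Frizzled receptors with LRP5 or LRP6 and act through beta-catenin or through routes that do not need it. FGFs bind receptor tyrosine kinases with heparan sulphate, and BMPs bind paired serine/threonine kinase receptors that act through SMAD proteins and ID genes. In the mouse mammary gland these families carry signals between stroma and epithelium when the bud forms, when ducts branch and in pregnancy.

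The study sequenced dissociated gland tissue of Holstein dairy cattle with a droplet assay that counts the 3' ends of transcripts by unique molecular identifiers (UMIs). One library came from an adult gland labelled as lactating and the other from a newborn gland. No treatment or genotype was given for either, and both were digested with collagenase and hyaluronidase after adipose tissue was trimmed away. The number of animals behind a library is not stated in the labels. With 1 library per stage, stage cannot be told apart from animal, sampling or library, so no test between stages was possible, and every interval below covers counting error only.

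The adult library held 15897 barcodes and 85388618 UMIs and the newborn library 13772 barcodes and 65597671 UMIs. Medians were 2723 and 4581 UMIs per barcode, and 57 barcode sequences occurred in both libraries. The files hold 29669 barcodes, the series' text gives 24472 cells, and 25022 cells were kept here. Clusters, numbered A in the adult and N in the newborn library, were made without the 51 genes and without the genes of their pathways, and were named from marker lists with "-like". The adult library gave 203 fibroblast-like, 2513 endothelial-like, 719 luminal epithelial-like, 408 milk-secreting epithelial-like and 20 basal or myoepithelial-like cells, beside immune cells, 6755 of them T or NK cell-like, and 550 unnamed cells. The newborn library gave 9435 fibroblast-like, 104 endothelial-like and 991 mast cell-like cells, 97 T or NK cell-like cells, a few other immune cells and 1484 unnamed cells, and no cluster there took an epithelial name. All 15 fibroblast markers were detected in the fibroblast-like cells of both libraries, at a summed 36753 and 30595 UMIs per 1e6 (CPM) in adult and newborn.

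Of the 51 genes, 23 had at least 20 UMIs in the kept adult cells, 22 in the newborn cells and 19 in both. Over all genes, 51.8% of adult and 47.4% of newborn values passed that limit, so the families were detected about as often as the table at large. BMP6, FGF22, WNT7B and WNT10A passed only in the adult library and FGF16, WNT6 and WNT10B only in the newborn library. Another 14 genes had 0 UMIs among all barcodes of both libraries, among them WNT1, WNT3, WNT3A, FGF3, FGF4 and BMP15. The other 11 genes under the limit had 0 to 18 UMIs per library in kept cells. WNT1, which lies beside WNT10B, and WNT3A, which lies beside WNT9A in the RefSeq annotation of ARS-UCD2.0, stayed at 0 although their neighbours reached 99 and 293 UMIs over all newborn barcodes.

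Among the named classes, more of which could be ranked in the adult library, the adult genes were spread over several. Most newborn genes were highest in fibroblast-like cells. Among named classes of at least 50 cells, 10 of the 23 adult genes were highest in fibroblast-like, 5 in endothelial-like and 5 in luminal epithelial-like cells, where 26.2%, 15.6% and 11.5% of all detected genes were highest. The remaining 3 were FGF22 in dendritic cell-like, BMP2K in macrophage or monocyte-like and WNT10A in plasma cell-like cells, against 6.63%, 6.2% and 4.37% of all genes. In the newborn library 16 of 22 genes were highest in fibroblast-like cells, against 24.6% of all genes, 5 in endothelial-like cells, against 35.9%, and 1, the kinase BMP2K, in mast cell-like cells, against 13.6%. The newborn ranking held only fibroblast-like, endothelial-like, mast cell-like and T or NK cell-like cells. It had no epithelial class, so the spread over classes cannot be compared between the libraries. Fibroblast-like cells were 77.3% of the kept newborn cells. Some genes, such as WNT6 with 85 of its 91 UMIs there, passed the UMI limit through that class. The ranking also left out the 1484 unnamed newborn cells. Genes such as FGF2, FGF16 and BMP4 were higher in those than in fibroblast-like cells, and others such as FGF7 and FGF10 were lower. Intervals of the highest and the next class overlapped for several genes of few UMIs, such as BMP6, WNT9A and FGF22 in the adult and BMP3, WNT6 and WNT10B in the newborn library.

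**Figure D1:**
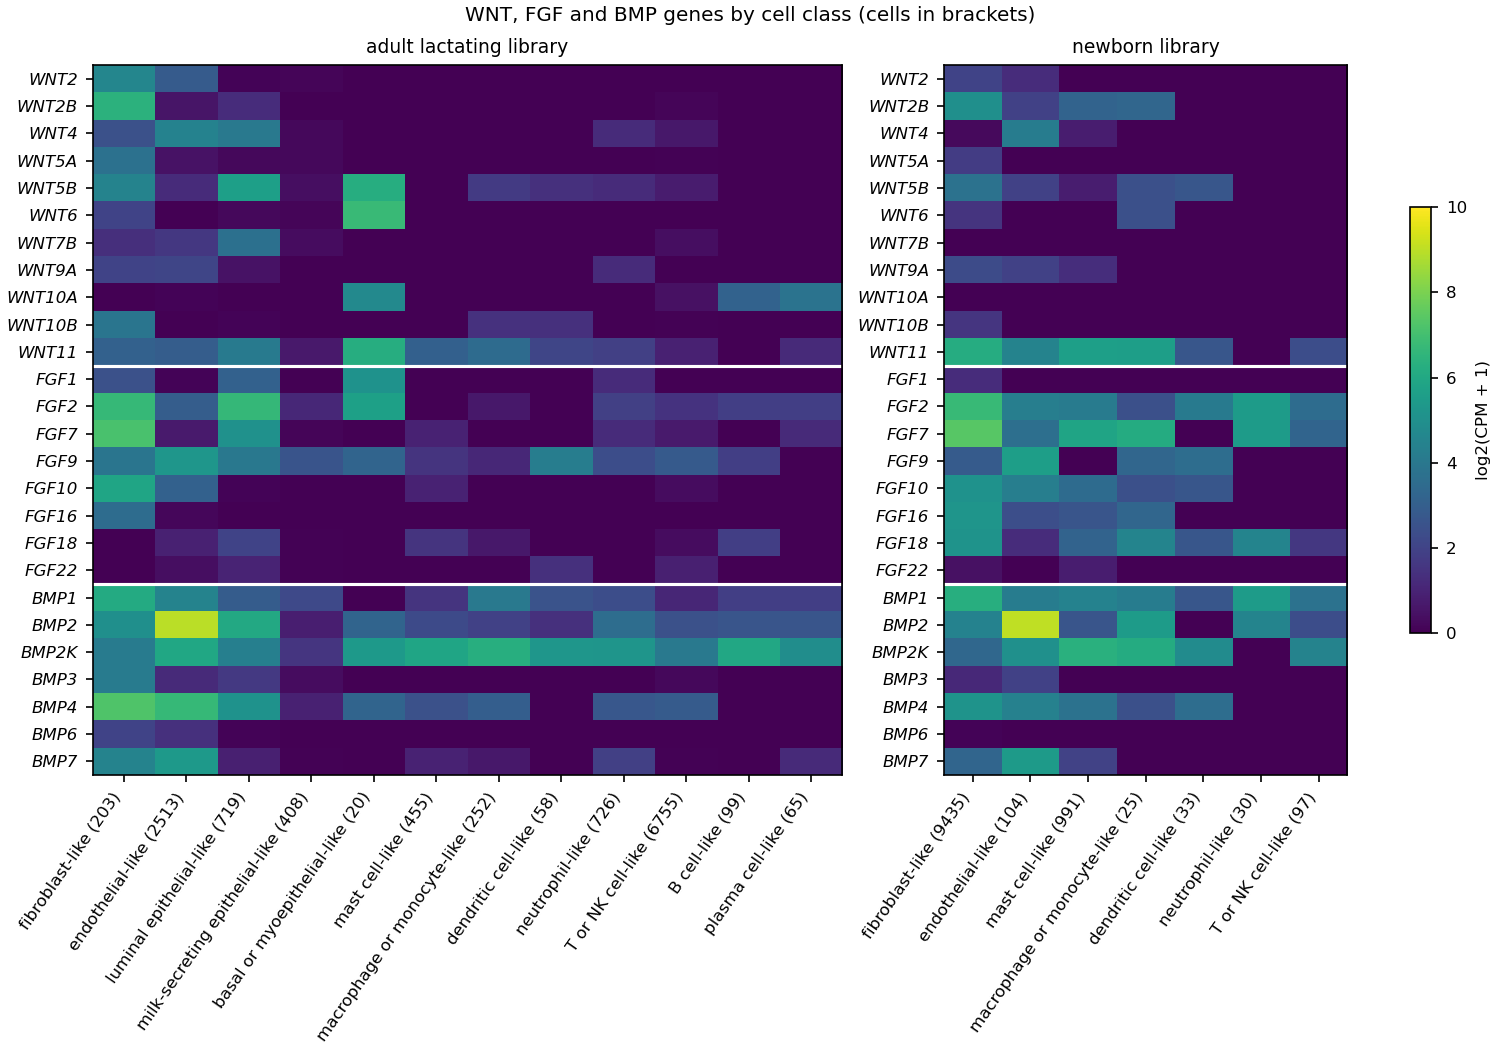
Levels of the 26 genes with at least 20 UMIs in either library, as log2(CPM + 1), by cell class, with the number of cells of each class in brackets and white lines between the WNT, FGF and BMP families. BMP2 stands out in endothelial-like cells of both libraries, at 498 and 527 CPM, and the milk-secreting column of the adult library is dark for nearly all genes.

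Fibroblast-like cells of both libraries carried FGF7 and FGF10, stromal ligands of the epithelial form of FGFR2, together with FGF2, WNT2B and BMP4. FGF7 stood at 139 CPM (95% interval 112 to 171) in adult and 167 CPM (163 to 171) in newborn fibroblast-like cells. FGF2, which leaves cells without a signal peptide, was at 102 CPM in adult and 105 CPM in newborn cells. On the CPM scale neither gene differed by more than counting error between the libraries, with newborn over adult ratios of 1.20 (0.976 to 1.49) and 1.03 (0.809 to 1.33). This reading depends on the scale. Scaling to the median gene, used further below, moves every ratio of this class towards newborn, those of FGF7 and FGF2 included. FGF10, which the mouse needs to form most mammary buds, was at 58.1 CPM (41.1 to 79.8) in adult and 33.6 CPM (31.9 to 35.3) in newborn cells. WNT2B was at 84.1 CPM (63.4 to 109) and 30.4 CPM (28.8 to 32.0), so that both were higher in the adult cells, by 1.73-fold (1.22 to 2.39) and 2.77-fold (2.08 to 3.63).

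Among the genes with at least 20 UMIs in the library where they were higher, WNT11, FGF18 and BMP4 were farthest apart between the stages in fibroblast-like cells. WNT11, a ligand mostly studied in beta-catenin-independent signalling, had 5 UMIs in the adult cells, 7.65 CPM (2.48 to 17.8), and 3298 UMIs in the newborn cells, 72.1 CPM (69.6 to 74.6), a ratio of 9.43 (4.03 to 29.0). FGF18 had 0 UMIs in the adult cells and 1563 UMIs, 34.2 CPM, in the newborn cells, at least 7.45-fold higher against a floor of 3 UMIs. BMP4 went the other way, at 151 CPM (123 to 184) in adult and 34.1 CPM (32.5 to 35.9) in newborn cells, 4.44-fold higher (3.58 to 5.44) in the adult.

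Of 11 genes with at least 20 UMIs in the library where they were higher, these 2 passed 4-fold towards newborn and BMP4 towards adult, where 3.47% and 6.71% of the 7212 genes compared did so. FGF16, a relative of FGF9, was at 10.7 CPM in adult and 35.7 CPM in newborn cells, a ratio of 3.33 (1.61 to 8.31). BMP2 stood at 30.6 and 20.4 CPM, with an interval of the ratio from 0.429 to 1.10, and WNT9A at 3.06 and 3.85 CPM. Over genes with at least 20 UMIs in both libraries the median log2 ratio of newborn over adult was -0.76. The BMP4 call was also lost with cells gated one by one on markers and under median-of-ratios scaling. Scaled to that median, BMP4 was 2.62-fold higher in the adult and no longer past 4-fold, FGF16 was 5.65-fold higher in the newborn and past it, FGF10 was nearly level at 1.02-fold, and BMP2 turned to a newborn over adult ratio of 1.13.

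At 653847 UMIs, the adult class could not reach 20 UMIs for genes under 30.6 CPM, and several WNT and BMP genes fell there. WNT2 had 15 UMIs in the adult cells, 22.9 CPM (12.8 to 37.8), and 137 UMIs, 2.99 CPM, in the newborn cells. BMP3, a BMP that restrains other BMPs, had 11 UMIs, 16.8 CPM, and 57 UMIs, 1.25 CPM. WNT10B, an early marker of the mouse mammary line, had 9 UMIs, 13.8 CPM, and 87 UMIs, 1.90 CPM. All 3 were higher in the adult cells beyond counting error, by 7.66-fold (4.17 to 13.1) for WNT2, 13.5-fold (6.39 to 26) for BMP3 and 7.24-fold (3.20 to 14.4) for WNT10B, under the UMI limit for a call. WNT5A, a beta-catenin-independent ligand, was at 12.2 and 2.45 CPM in adult and newborn cells, 5.00-fold (2.11 to 10.2) higher in the adult, and BMP7 at 21.4 and 8.63 CPM, 2.48-fold (1.34 to 4.21). Among the newborn clusters described below, 1 each lay above the adult level for BMP3, 20.2 CPM in N15, WNT10B, 17.3 CPM in N13, and BMP7, 54.1 CPM in N13. For BMP3 and WNT10B the intervals overlapped those of the adult cells. No cluster lay above it for WNT2 or WNT5A. For 4 further genes the interval of the ratio included 1: WNT5B at 21.4 and 12.7 CPM, FGF9 at 13.8 and 6.38 CPM, FGF1 at 4.59 and 1.42 CPM, and WNT6 at 3.06 and 1.86 CPM.

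**Figure D2:**
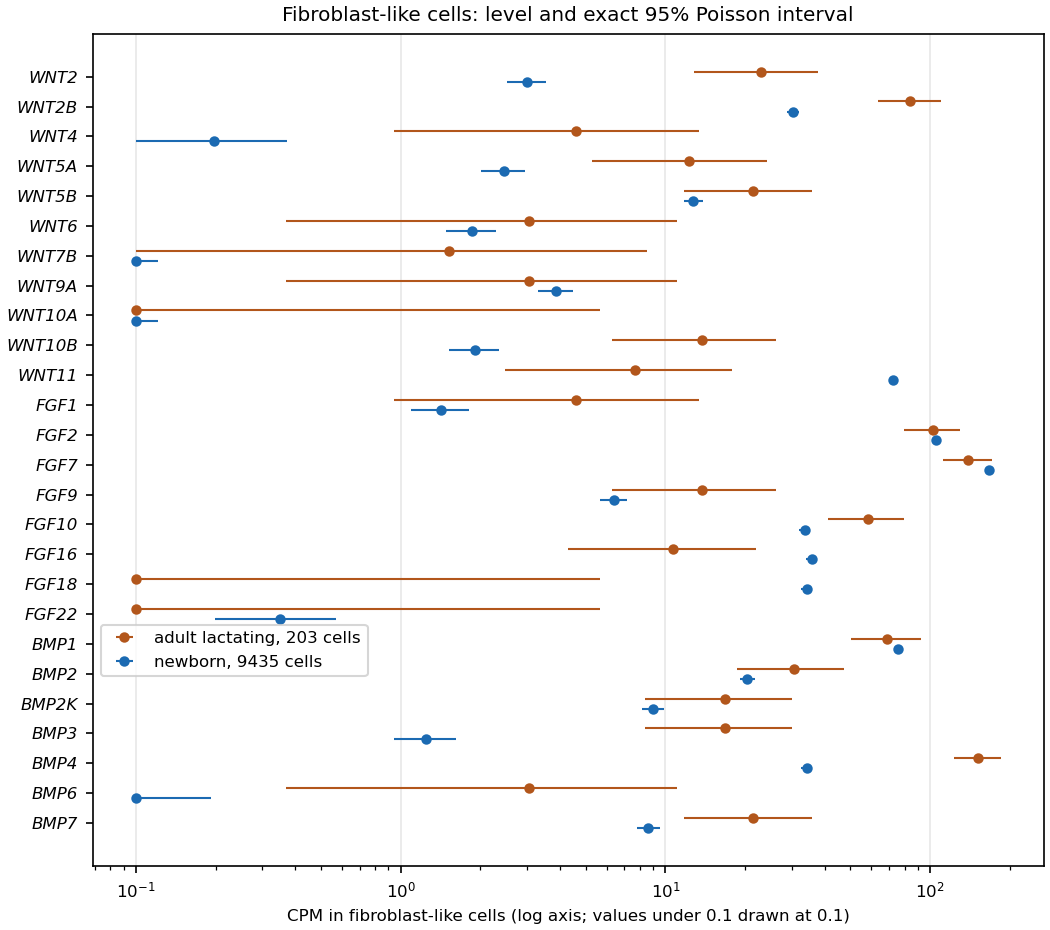
Level of each gene in fibroblast-like cells of the adult (brown, 203 cells) and newborn (blue, 9435 cells) libraries in CPM on a log axis, with exact Poisson 95% intervals; values under 0.1 are drawn at 0.1. WNT11 and FGF18 are separated towards newborn and BMP4, WNT2 and BMP3 towards adult, while FGF2, FGF7 and BMP1 overlap, and adult intervals are wide because that class held 653847 UMIs against 45755762.

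In fibroblast-like cells several receptors of these ligands were higher in the adult library, while some target genes were higher in the newborn library. Of 7 BMP receptor genes compared, ACVR1 and ACVR2A passed 4-fold towards adult and 0 towards newborn, with a list median log2 ratio of -1.88 against -0.31 over all genes compared. Over all 7212 genes compared, 6.71% passed 4-fold towards adult and 3.47% towards newborn, which also holds beside the lists below. BMPR2, the type II receptor, was at 106 CPM in adult and 26.6 CPM in newborn cells, and ENG, a co-receptor, at 116 and 31.7 CPM. Of 8 BMP target genes compared, ID1 and MSX1 passed 4-fold towards newborn and 0 towards adult, with a median log2 ratio of 1.02. ID1, a direct SMAD target, was at 78.0 CPM in adult and 420 CPM in newborn cells, 5.38-fold (4.09 to 7.23), and ID3, another such target, at 269 and 278 CPM, so members of the list differed in how far apart the stages were.

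Secreted antagonists also differed by stage. Of 7 WNT inhibitors compared, SFRP4, DKK3 and SFRP1 passed 4-fold towards adult and 0 towards newborn, against 6.71% and 3.47% of all genes compared. The list median log2 ratio was -1.42. It was -0.31 over all genes compared and -0.76 over genes with at least 20 UMIs in both libraries. SFRP4, a decoy that binds WNTs, was at 1508 CPM in adult and 108 CPM in newborn cells, 13.9-fold (13 to 14.9) higher in the adult. Among 7 BMP antagonists compared, CHRD passed towards adult and FST, which binds activins and some BMPs, towards newborn at 38.2 and 399 CPM. FZD1 and FZD2, 2 of the 7 WNT receptors compared, passed towards adult, at 90.2 and 14.3 CPM for FZD1. Scaled to the median gene, SFRP4 (8.21-fold higher in the adult), DKK3 and FZD2 stayed past 4-fold towards adult, and SFRP1, CHRD, FZD1, ACVR1 and ACVR2A did not.

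Of the FGF receptors, FGF-binding genes and feedback targets compared in fibroblast-like cells, SDC4 alone passed 4-fold. FGFR1, the main FGF receptor of fibroblasts, was at 81.1 CPM in adult and 57.9 CPM in newborn cells, and FGFR2 had 2 UMIs in the adult cells. SDC4, a heparan sulphate proteoglycan, was at 30.6 and 477 CPM, 15.6-fold (10.1 to 25.5) higher in the newborn cells, the only 1 of 4 FGF-binding genes compared to pass 4-fold. Of 5 feedback targets compared, 0 passed in either direction, with EGR1 at 847 and 1662 CPM, SPRY2 at 144 and 214 CPM and SPRY1 at 216 and 76.6 CPM. Of 4 WNT target genes compared, MYC passed towards newborn, at 174 and 789 CPM, and CCND1 was at 56.6 and 30.4 CPM.

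**Figure D3:**
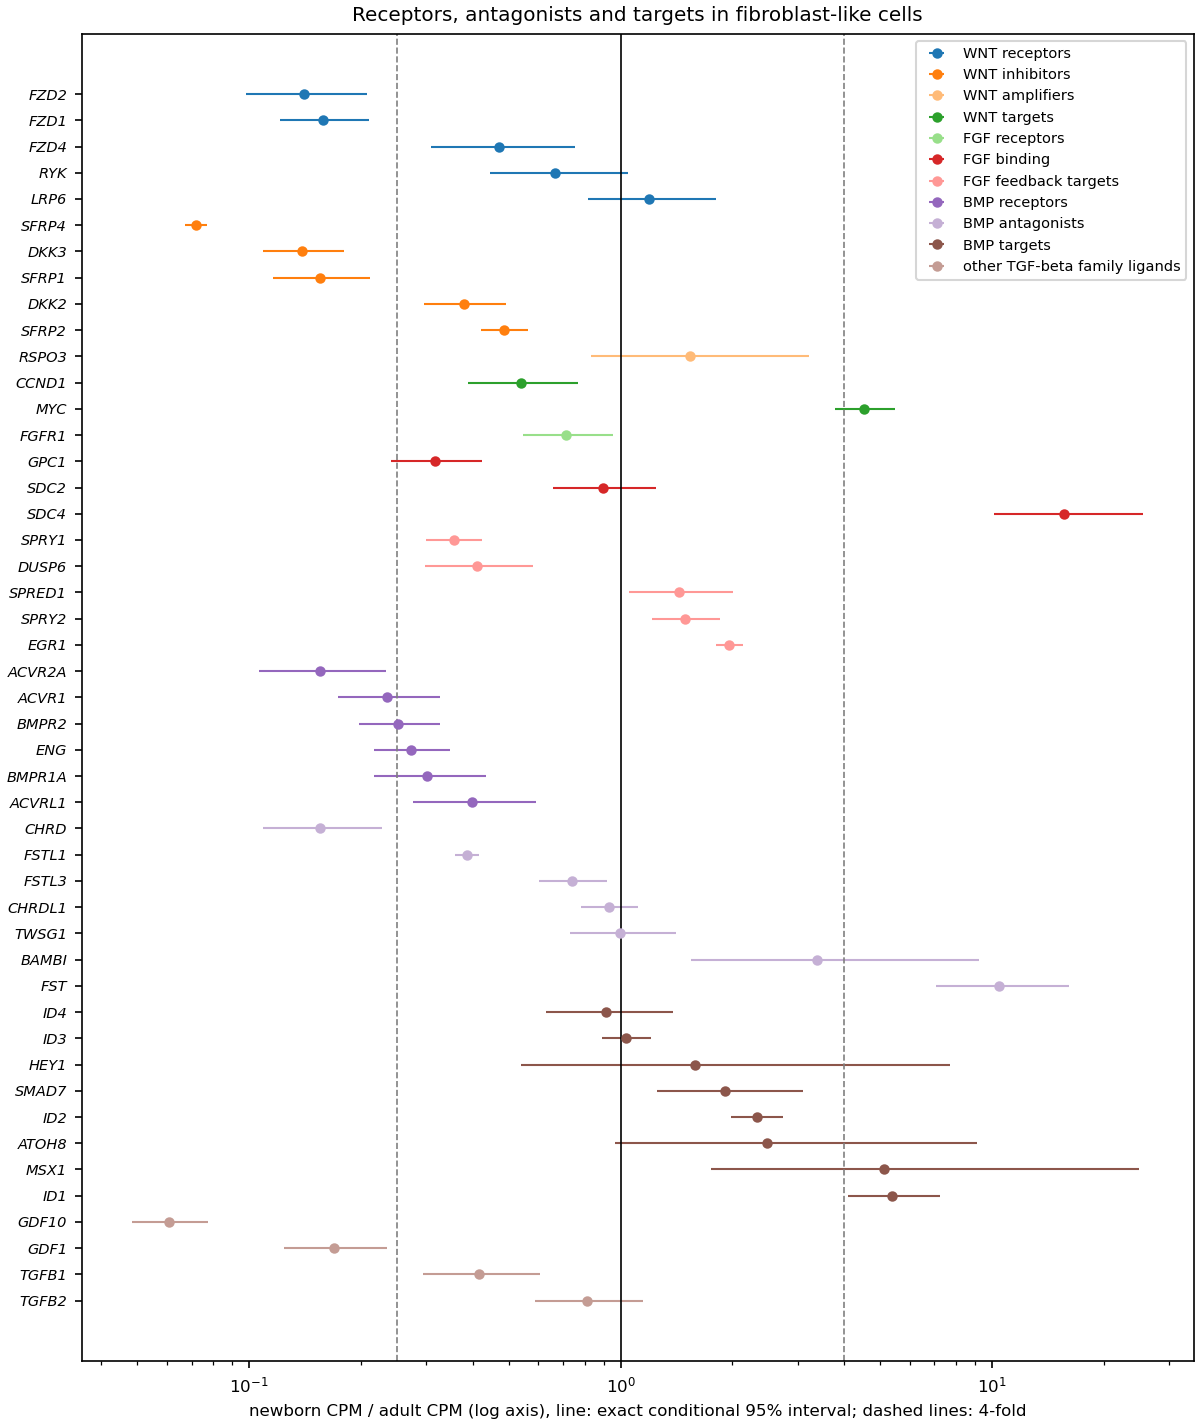
Ratio of newborn over adult CPM in fibroblast-like cells on a log axis for receptors, co-receptors, antagonists and target genes with at least 3 UMIs in each library and 20 in the higher one, with exact conditional 95% intervals; dashed lines mark 4-fold. The 6 BMP receptors drawn, of 7 compared, and the 5 WNT inhibitors drawn, of 7 compared, lie left of 1, and SDC4 and FST lie farthest right. The limit of 3 UMIs mostly removes genes low in the adult class, which held fewer UMIs, so the drawn cases do not stand for the whole lists.

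The newborn fibroblast-like cells fell into 12 clusters that differed widely in these ligands. Of 11 genes with at least 500 UMIs in that class, 11 were at least 4-fold apart between their highest and lowest cluster on the CPM + 1 scale, where 42.9% of 5920 such genes were. FGF7 ranged from 15.7 CPM (6.32 to 32.4) in N15 to 443 CPM (426 to 460) in N4, with 339 CPM in N3, 282 CPM in N7 and 248 CPM in N14. The remaining clusters lay between 15.7 and 56.6 CPM, so that FGF7 split the class into 4 high and 8 low clusters. N3 was led by the chemokine CCL11, N4 by KCNK12 and the retinoic acid hydroxylase CYP26B1, N7 by serum amyloid genes and FABP4, and N14 by interferon-induced genes such as RSAD2 and IFIT3. Among their 10 leading genes N4 held 1 mast cell marker, IL1RL1, and N7 and N8 1 adipocyte marker, FABP4, and none of the 3 held a fibroblast marker there. Without N4, N7 and N8, an alternative chosen after the data were seen, 2 genes still passed 4-fold towards newborn and 1 towards adult between the stages, and the log2 ratio of FGF7 turned to -0.25, adult higher.

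FGF10 was high in other clusters than FGF7, although both use the same receptor. It reached 98.0 CPM (86.1 to 111) in N2, 97.3 CPM (86.5 to 109) in N8 and 83.0 CPM in N15, where FGF7 was at 56.6, 33.2 and 15.7 CPM. In N3 and N4 FGF10 was at 10.9 and 11.7 CPM. N7 was the exception, with 65.7 CPM of FGF10 beside its 282 CPM of FGF7. Across the 12 clusters, which share a library, the rank correlation of FGF7 and FGF10 was -0.48, that of FGF7 and FGF18 was 0.68, and that of FGF2 and FGF16 was 0.83, the highest of 55 pairs.

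N4, high in FGF7, was also the highest named cluster for FGF16 and FGF18. FGF16 was at 135 CPM (126 to 145) in N4 and 58.9 CPM in N3, with the lowest value, 5.26 CPM, in N8. FGF18, which acts in bone and lung of the mouse, was at 99.9 CPM (91.9 to 108) in N4, 55.7 CPM in N14 and 53.2 CPM in N3, and at 6.73 CPM in N15. The interval of FGF18 lay above that of the adult class, which had 0 UMIs, in 9 of 12 clusters. Of 5 FGF feedback targets with at least 500 UMIs, SPRED1 and SPRY2, inhibitors of the kinase cascade below FGF receptors, followed FGF7 with rank correlations of 0.91 and 0.85, DUSP6 and SPRY1 had 0.29 and 0.15, and EGR1 had -0.69. Over all other genes with as many UMIs the median correlation with FGF7 was -0.32, and 6.66% reached 0.7. SPRED1 was at 162 CPM in N4 and in N3, 151 CPM in N7 and 158 CPM in N14, against 18.5 CPM in N9, its lowest cluster.

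**Figure D4:**
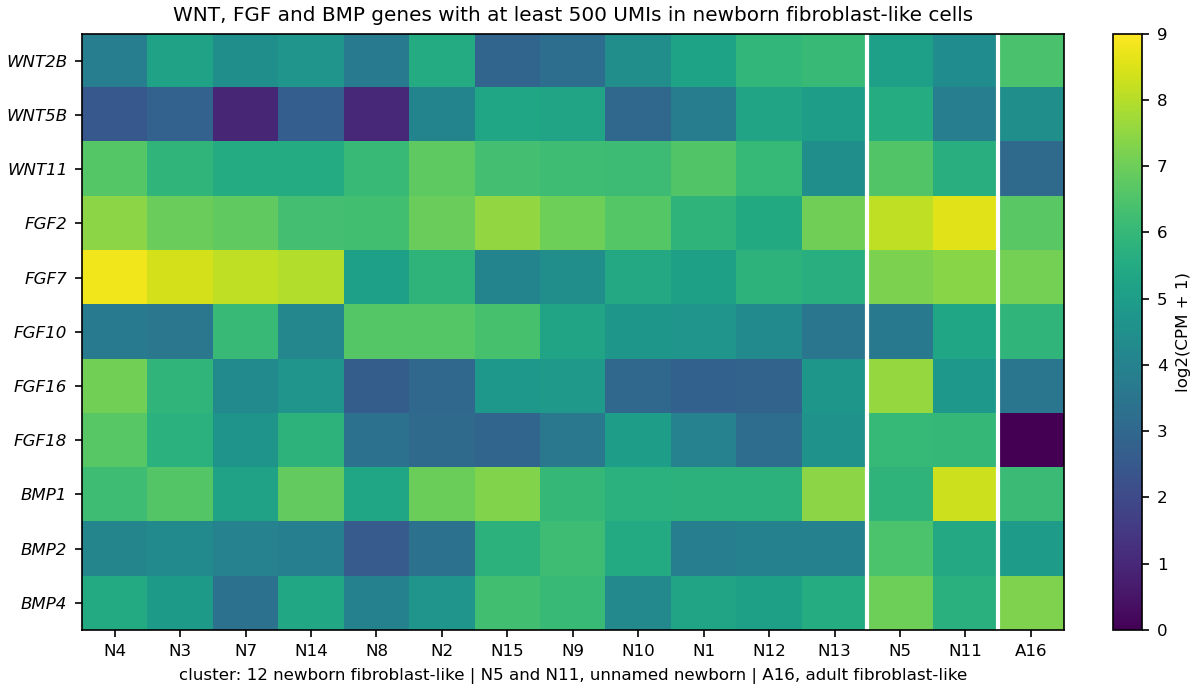
Levels as log2(CPM + 1) of the 11 genes with at least 500 UMIs in newborn fibroblast-like cells, by cluster, with the unnamed newborn clusters N5 and N11 and the adult fibroblast-like cluster A16 at the right. FGF7 is bright in N4, N3, N7 and N14, FGF10 in N8, N2, N15 and N7, and in A16 FGF18 is at 0 and WNT11 is low.

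Cluster N13, led by SLPI and PROCR, was the highest of the 12 clusters for several WNT ligands, of which WNT10B was low in all others. WNT10B had 54 of its 87 UMIs of the class there, 17.3 CPM (13 to 22.5), against at most 2.62 CPM in the other clusters. BMP7 was at 54.1 CPM (46.2 to 62.9) in N13 and at most 10.5 CPM in the others. WNT2B, 68.1 CPM (59.3 to 77.9), WNT2, 11.5 CPM, and WNT9A, 11.2 CPM, were also highest there, and WNT11, at 21.1 CPM, was lowest there. N13 was the deepest cluster of the class, its cells having a median 9146 UMIs, and N15 one of the shallowest, with 1714.

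BMP2 and BMP4 marked a further set of clusters. BMP2 was highest in N9 at 73.3 CPM (64.4 to 83.2), followed by N15 at 53.9 CPM and N10 at 43.9 CPM, and lowest in N8 at 4.93 CPM. BMP4 was highest in N15 at 76.3 CPM (52.8 to 107) and N9 at 67.0 CPM, and lowest in N7 at 9.28 CPM, so that no named newborn cluster reached the 151 CPM of the adult cells. FGF9, 49.4 and 30.6 CPM, BMP3, 20.2 and 6.97 CPM, and WNT5B, 38.2 and 37.0 CPM, were likewise high in N15 and N9. WNT5B fell to 0.952 CPM in N7 and 0.986 CPM in N8. WNT11 was above the adult level in 12 of 12 clusters, from 21.1 CPM in N13 to 108 CPM in N2, and in 11 the intervals did not overlap.

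N5, with 1020 cells, held 12 of 15 fibroblast markers, and contractile and neuropeptide genes such as CNN1, OXTR and TAC1 led it. It was left unnamed because its 10 leading genes against other lineages held the basal or myoepithelial marker CNN1 and no fibroblast marker. It carried FGF16 at 188 CPM (177 to 199), FGF2 at 279 CPM (266 to 293) and BMP4 at 130 CPM (121 to 139), each above the highest named fibroblast-like cluster. BMP2 was at 86.8 CPM, WNT5B at 46.6 CPM and WNT11 at 93.7 CPM. N11, with 464 cells of a median 754.5 UMIs, held BMP1 at 315 CPM and FGF2 at 384 CPM, and its shallow depth moved with these values, whose cause was not tested. With N5 and N11 counted as fibroblast-like, an alternative chosen after the data were seen, BMP4 no longer passed 4-fold between the stages. The unnamed newborn cells together held FGF2 at 286 CPM, FGF16 at 176 CPM, FGF7 at 148 CPM, BMP4 at 124 CPM and WNT11 at 90.6 CPM. BMP2 was at 83.6 CPM there, BMP1 at 75.5 CPM, FGF18 at 64.7 CPM, WNT5B at 44.3 CPM and WNT2B at 31.7 CPM. Lower values were found for FGF10, 13.2 CPM, BMP2K, 9.57 CPM, and FGF9, 6.75 CPM. In the same cells WNT5A stood at 4.24 CPM, WNT9A at 10.5 CPM, FGF1 at 5.34 CPM and BMP3 at 4.55 CPM.

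BMP2 was higher in endothelial-like cells than in any other class of at least 50 cells at both stages. It stood at 498 CPM (486 to 509) in adult and 527 CPM (475 to 584) in newborn endothelial-like cells, a ratio of 1.06 (0.952 to 1.18). After thinning each cell to 1000 UMIs, 21.5% of adult and 22.8% of newborn endothelial-like cells held a BMP2 UMI, with 42.3% and 46.2% unthinned, against 0.461% and 1.05% of T or NK cell-like cells. Median depths were 3125 and 4950 UMIs in endothelial-like and 2659 and 4107 UMIs in T or NK cell-like cells. BMP7 was at 40.2 and 42.9 CPM and FGF9 at 37.6 and 47.2 CPM, with ratios of 1.07 (0.712 to 1.54) and 1.25 (0.854 to 1.78). WNT4, which acts downstream of progesterone in the mouse mammary epithelium, was at 20.8 and 17.2 CPM, a ratio of 0.825 (0.422 to 1.46), and in fibroblast-like cells it had 3 adult and 9 newborn UMIs, 4.59 and 0.197 CPM. All 4 intervals included 1, with 33 or fewer newborn UMIs behind each of the last 3. These ratios depend on the mix of vessels, since 1842 and 538 of the adult cells were in lymphatic clusters. Against adult blood vascular cells alone, an alternative chosen after the data were seen, the log2 ratio was 3.38 for BMP7 and 3.52 for FGF9. It was 0.50 for BMP2 and 0.74 for WNT4. BMP7 and FGF9 passed 4-fold towards newborn, but the share of all genes passing is not given for this alternative. The newborn cluster carried lymphatic as well as venous marker genes, so the sides of this comparison differ in vessel kind.

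BMP4 was at 104 CPM (98.3 to 109) in adult and 20.0 CPM (10.9 to 33.6) in newborn endothelial-like cells. It was 5.17-fold (3.07 to 9.48) higher in the adult, and the newborn value rested on 14 UMIs in 8 cells. WNT2 was at 6.25 CPM in adult cells and had 1 newborn UMI, an adult over newborn ratio of 4.37 with an interval, 0.765 to 175, that included 1. These were 2 of 11 genes compared, and 0 passed towards newborn, where 3.43% and 1.67% of 8904 genes passed. WNT7B, 2.04 CPM, WNT9A, 3.30 CPM, BMP6, 1.62 CPM, FGF2, 6.67 CPM, WNT11, 6.81 CPM, and FGF10, 7.51 CPM, had at most 107 UMIs each in the adult endothelium. In the newborn library 91.7% of endothelial-like cells with a BMP2 UMI and 75% of those without held at least 2 of 5 fibroblast genes. The former were deeper, with a median of 5856 UMIs against 2739.5. All 8 cells with a BMP4 UMI and all 11 with a WNT11 UMI held them, against 81.25% and 80.6% of the others. COL1A1 stood in this class at 10.2% of its fibroblast level. BMP4 at 58.6%, FGF10 at 55.3% and WNT11 at 29.7% of their fibroblast levels are given beside that value. The part of free or shared RNA in them was not tested.

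Adult endothelium held clusters of lymphatic and of blood vessel markers, and ligands separated them. BMP2 was at 211 CPM (199 to 224) in the lymphatic cluster A2, 714 CPM (696 to 733) in the lymphatic cluster A7 and 431 CPM (387 to 478) in the blood vascular cluster A20. A7 was 3.38-fold (3.17 to 3.60) above A2, and none of 11 genes compared between them passed 4-fold, where 1.03% and 0.8% of all genes did in each direction. The BMP targets ID1, ID2 and ID3 were at 396, 854 and 225 CPM in A7 and at 71.7, 187 and 77.2 CPM in A2, 5.52-fold (4.96 to 6.14), 4.57-fold and 2.91-fold higher. A7 cells were deeper, with a median of 10658 UMIs against 2448.5 in A2, and the part of depth in these values was not tested. BMP2 and ID1 were among the 10 leading genes of A7 although neither was used for clustering.

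BMP4 was alike across the 3 clusters, at 114, 97.2 and 111 CPM in A2, A7 and A20. FGF2 was at 1.10 CPM in A2, 0.770 CPM in A7 and 100 CPM (80.0 to 125) in A20, 91.7-fold (40.4 to 257) higher in the blood vascular cells than in A2. WNT11 was at 3.1, 7.57 and 25.4 CPM, 8.19-fold (4.11 to 16.5) higher in A20 than in A2. BMP7 and WNT4 went the other way: BMP7 was at 53.5 and 35.4 CPM in A2 and A7 with 1 UMI in A20, and WNT4 at 27.0 and 17.7 CPM with 0 UMIs in A20, at least 7.44-fold lower there. FGF9 was at 43.3 CPM in A2 and 4.84 CPM in A20. Of 12 genes compared, FGF2 and WNT11 passed 4-fold towards A20, where 3.63% of all genes did, and BMP1, BMP2K, BMP7, FGF9, WNT2 and WNT4 towards A2, where 13.2% did. INHBA, an activin subunit, was at 261 CPM in A20 and 0.730 CPM in A2, and the BMP co-receptor ENG at 594 and 69.4 CPM. A28, 16 cells with blood vessel markers, had 10 WNT4 and 8 WNT2 UMIs, 67.6 CPM (32.4 to 124) and 54.0 CPM (23.3 to 106). The newborn cluster N16 carried both lymphatic and venous marker genes, so its values are an average of the kinds that the adult clusters separate.

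**Figure D5:**
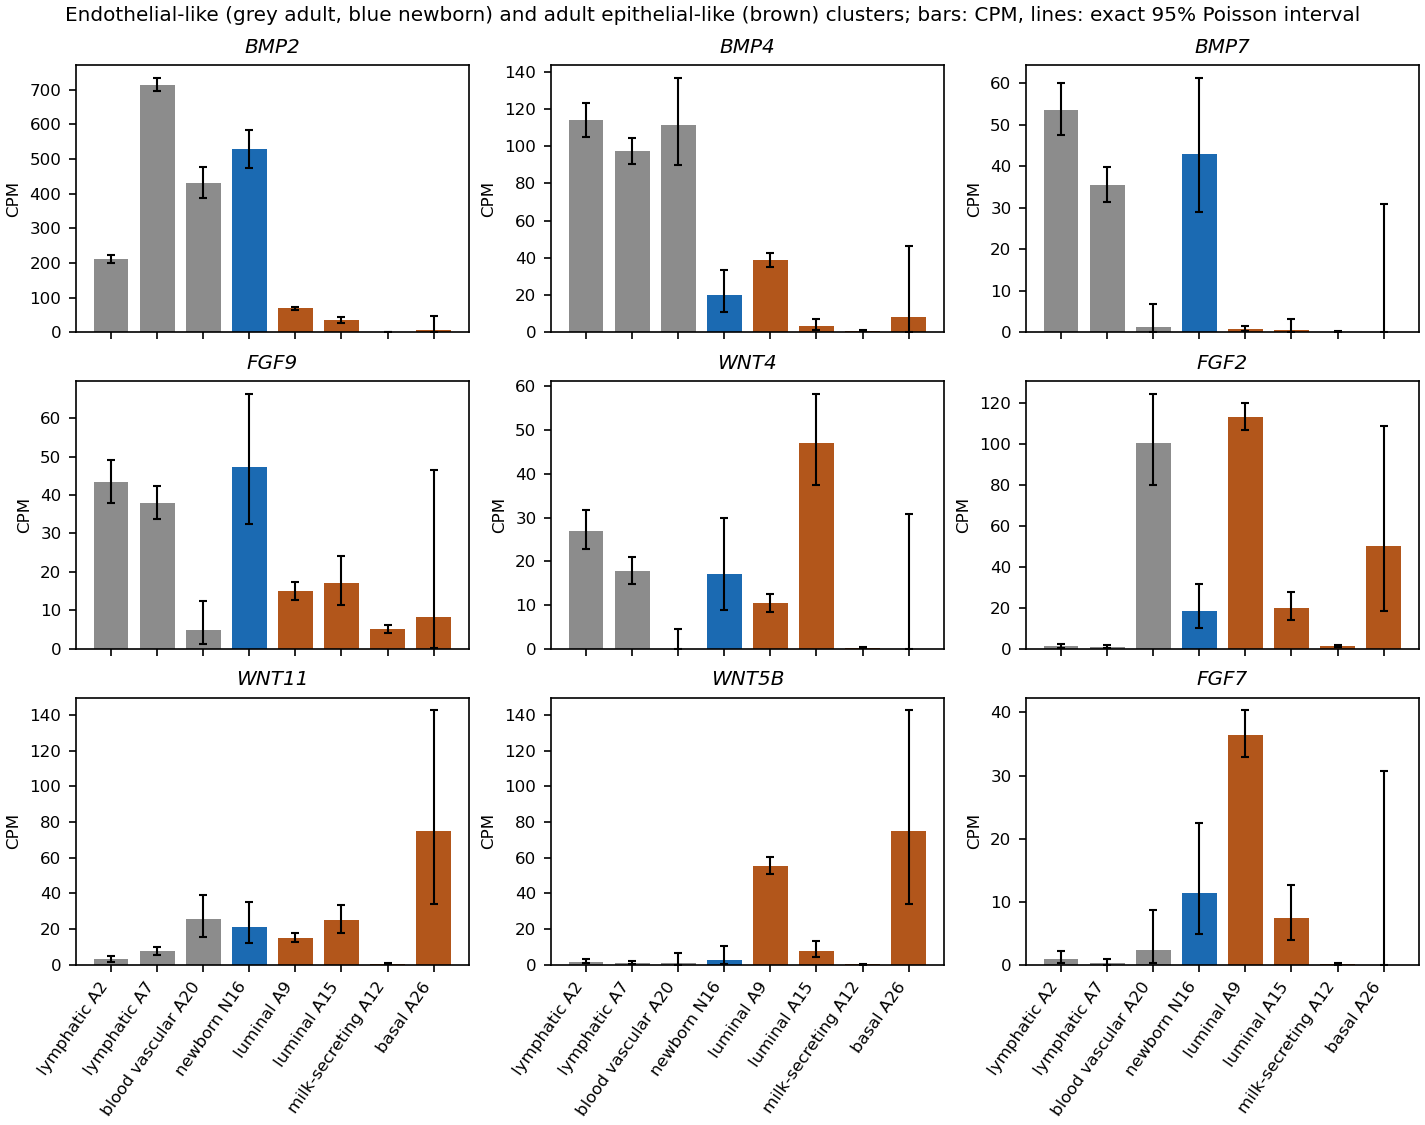
CPM with exact Poisson 95% intervals of 9 genes in adult endothelial-like clusters (grey), the newborn endothelial-like cluster (blue) and adult epithelial-like clusters (brown); each panel has its own axis from 0. BMP7, FGF9 and WNT4 are high in both lymphatic clusters and low in A20, FGF2 is the reverse, and FGF2, FGF7 and WNT5B are higher in luminal cluster A9 than in A15.

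The luminal epithelial-like cells of the adult gland carried growth factors usually assigned to stroma. FGF2 was at 99.8 CPM (94.2 to 106), beside 102 CPM in fibroblast-like cells, and FGF7 at 32.2 CPM (29.1 to 35.6). BMP2 was at 64.2 CPM, BMP4 at 33.6 CPM, WNT5B at 48.5 CPM, WNT11 at 16.6 CPM and WNT4 at 15.7 CPM. WNT7B, at 11.9 CPM (10.0 to 14), and FGF1, at 7.60 CPM (6.13 to 9.32), were highest in this class among those of at least 50 cells, with fibroblast-like cells at 1.53 and 4.59 CPM and an overlapping interval for FGF1. FGF9 was at 15.2 CPM, FGF18 at 3.06 CPM and BMP3 at 2.15 CPM. FGF22, an epithelial relative of FGF7, had 12 UMIs in the luminal cells and 36 in the whole adult library.

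The luminal clusters A9, led by LCN2 and WFDC2, and A15, led by MUCL1 and PNMT, differed in the sums of FGF and BMP genes. A9 held 80% of the luminal list, but KRT15 was also among its leading genes. KRT5, a marker of the basal or myoepithelial list, was among its leading genes against other lineages. The luminal name of A9 is therefore less clear-cut than the class label says. The detected FGF genes summed to 176 CPM (168 to 185) in A9 and 57.7 CPM (47.1 to 70.1) in A15, and BMP genes without BMP1 and BMP2K to 110 CPM and 44.7 CPM. The WNT sums, 96.5 CPM (90.6 to 103) and 86.0 CPM (72.9 to 101), overlapped. FGF2 was at 113 CPM in A9 and 19.8 CPM in A15, 5.73-fold (4.09 to 8.26) apart, and WNT5B at 55.4 and 7.92 CPM, 6.99-fold (4.13 to 12.9) apart. FGF7, at 36.5 and 7.36 CPM, and BMP4, at 38.8 and 3.40 CPM, were 4.96-fold (2.86 to 9.39) and 11.4-fold (5.20 to 31.3) higher in A9. WNT4 went the other way, at 10.4 CPM (8.48 to 12.5) in A9 and 47.0 CPM (37.4 to 58.2) in A15, 4.54-fold (3.37 to 6.10) higher in A15. Of 11 genes compared these 4 passed 4-fold towards A9 and WNT4 towards A15, where 4.47% and 1.87% of all genes did. The oestrogen receptor ESR1 was at 26 CPM in A15 and 7.64 CPM in A9, and the progesterone receptor PGR at 16.4 and 9.0 CPM, genes looked up after the WNT4 values were seen.

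At least 2 of 5 fibroblast genes were found in 3.85% of the 130 A9 cells with an FGF7 UMI and in 2.51% of the others. The shares were 4.52% and 1.73% for cells with and without a BMP4 UMI and 5.61% and 2.10% for WNT11, and cells with a UMI of these genes were deeper, with medians of 24262, 24741 and 31089 UMIs against 14316, 12507 and 13043. The part of depth in these shares was not tested. The whole fibroblast list summed to 105 CPM in A9 against 36753 CPM in fibroblast-like cells. FGFR2, the receptor of FGF7 and FGF10, was at 24.3 CPM in A9 and 3.40 CPM in A15, and FGFR1 at 68.3 and 118 CPM. FGFBP1, which carries FGFs off heparan sulphate, was at 374 and 15.3 CPM, and the WNT inhibitor SFRP1 at 198 and 2.26 CPM. LGR4, an R-spondin receptor, was at 60.8 and 54.3 CPM.

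Milk-secreting epithelial-like cells, with 19783824 UMIs, gave low CPM for these genes, and the 10 markers of the milk-secreting list summed to 714185 CPM there. The 11 detected WNT genes summed to 1.67 CPM (1.15 to 2.34) there, against 95 CPM in luminal epithelial-like and 174 CPM in fibroblast-like cells. BMP1, at 3.64 CPM, FGF9, at 5.05 CPM, BMP2K, at 1.92 CPM, and FGF2, at 1.16 CPM, were those with 20 UMIs or more. Without mitochondrial, ribosomal and milk protein genes in the denominator, FGF2 was at 6.74 CPM there and 135 CPM in luminal cells, while FGF9 was at 29.3 and 20.6 CPM and BMP1 at 21.1 and 8.97 CPM. FGF9 and BMP1 were thus lower than in luminal cells on the full denominator and higher on this one. FGFBP1 was at 721 CPM in this class.

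The 20 basal or myoepithelial-like cells gave few UMIs, 119836 in all, but a distinct set of WNT genes, named after their values were seen. WNT6 had 13 of the 19 UMIs of the adult library there, 108 CPM (57.8 to 186), WNT11 and WNT5B had 9 UMIs each, 75.1 CPM (34.3 to 143), and WNT10A, the neighbour of WNT6, had 3 UMIs. The WNT genes summed to 284 CPM (196 to 396), above the fibroblast-like sum of 174 CPM (144 to 209) with overlapping intervals. DKK1, a WNT inhibitor that binds LRP6, was at 242 CPM in these cells and had 0 UMIs in the adult fibroblast-like cells, and FGFR2 was at 100 CPM. FGF2 had 6 UMIs and FGF1 4 UMIs.

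Immune cells held little of these families apart from BMP2K. The kinase was at 75.8 CPM in adult macrophage or monocyte-like cells, 63.1 CPM in B cells, 61.5 CPM in endothelium and 58.6 CPM in mast cells, with overlapping intervals. Lower levels were found in dendritic cell-like cells, 37.5 CPM, neutrophil-like cells, 35.7 CPM, plasma cell-like cells, 28.7 CPM, luminal cells, 19.1 CPM, unnamed adult cells, 37.4 CPM, and T or NK cell-like cells, 15.4 CPM. In the newborn library it was at 80.4 CPM in mast cells, 31.4 CPM in endothelium and 9.0 CPM in fibroblasts. FGF9 stood out in the unnamed adult cluster A18, 169 cells led by IL17A, IL17F and WC1, with 55 UMIs, 90.1 CPM (67.9 to 117), against 2.14 CPM in the unnamed cluster A13 and 6.19 CPM in the class of T or NK cells. All unnamed adult cells together held it at 28.8 CPM, and adult dendritic cell-like cells at 18.0 CPM from 11 UMIs. In A27, a dendritic cell-like cluster of 19 cells, the FGF genes summed to 67.8 CPM (33.9 to 121), which overlapped the interval of A18. WNT10A had 10 of its 27 adult UMIs in plasma cell-like cells, 13.1 CPM (6.26 to 24.0). The adult T or NK class held BMP4 at 6.24 CPM, BMP2 at 4.52 CPM, FGF2 at 1.78 CPM and BMP1 at 1.12 CPM.

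Mast cell-like cells of the newborn library carried fibroblast ligands that were nearly missing from those of the adult library. FGF7 had 75 UMIs in the newborn cells, 55.8 CPM, and 1 UMI in the adult cells, a ratio of 60.0 (10.5 to 2403). WNT11 was at 48.4 and 7.44 CPM, a ratio of 6.50 (3.11 to 15.7), BMP1 at 20.8 and 1.86 CPM, and FGF2 at 17.1 CPM against 0 UMIs, at least 6.14-fold higher. These were 4 of 5 genes compared, and 0 passed towards adult, where 5.70% and 4.95% of 5068 genes passed. Fibroblast transcripts moved with them. The fibroblast list summed to 4210 CPM in newborn and 58.6 CPM in adult mast cell-like cells, and 22 of the 27 newborn mast cell-like cells with an FGF7 UMI, 81.5%, held at least 2 of 5 fibroblast genes, against 48.3% of the others. COL1A1 and DCN stood there at 11.3% and 14.5% of their fibroblast levels, FGF7 at 33.4% and WNT11 at 67.1%. How much of these values belongs to mast cells was not tested. With cells gated one by one on markers 0 genes passed towards newborn, and with no doublets removed 1 gene did.

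BMP1, the procollagen protease, was highest in fibroblast-like cells of both libraries. It was at 68.8 CPM (50.2 to 92.1) in adult and 75.8 CPM in newborn fibroblast-like cells, a ratio of 1.10 (0.821 to 1.51), at 21.3 CPM in adult endothelial-like, 15.4 CPM in macrophage or monocyte-like and 6.61 CPM in luminal cells, and up to 170 CPM in newborn cluster N13. FGF13 had 18 UMIs in the kept adult cells, and FGF14 had 0 UMIs in both libraries.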

How the data were processed

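The authors deposited whole-number UMI counts per gene and barcode for 1 adult and 1 newborn library, and the submitters' processing notes name Cell Ranger 3.1.0. Neither build nor annotation is given in the sources used here. The 51 genes and all gene and marker lists were chosen with earlier results of these data known.

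Cells with at least 300 genes and at most 20% mitochondrial UMIs were kept. Scrublet's automatic threshold marked 0% of cells as doublets, so the highest-scoring 1868 adult and 1511 newborn cells were removed, up to the expected 12.7% and 11.0%. Each library was clustered alone with scanpy 1.11.5 on 2000 variable genes, without the 51 genes and their pathway lists, by 30 principal components, 15 neighbours and Leiden resolution 1. Clusters were named from 18 marker lists, and the thresholds and joining of clusters were set after the data were seen.

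UMI counts were summed per class or cluster and given as UMIs per 1e6 (CPM) with exact Poisson 95% intervals. Ratios have exact conditional 95% intervals from scipy 1.17.1. A gene was compared with at least 20 UMIs in the higher group and called at 4-fold, and 0 UMIs was set against a floor of 3 UMIs. Shares of cells have Clopper-Pearson intervals after thinning to 1000 UMIs. Every gene of the rule with at least 20 UMIs in either library is named with its level in each class holding at least 20. From each pathway list the named genes are among those with most UMIs or the widest ratio. Genes named outside these rules, such as the hormone receptors, the IL17A-led cluster and single-cluster values under 20 UMIs, were chosen after their values were seen. The ratio method was tested on simulated data. Levels are not compared between genes, since 3' counts depend on each gene's annotated end.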

Additional observations from a re-analysis of the deposited data

How the results depend on the processing

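Counts of genes past 4-fold moved with the naming of cells. In endothelial-like cells the newborn-higher count of 0 became 3 under a stricter cell filter and 3 with no doublets removed, and 2 with adult blood vascular cells alone. The adult-higher count of 2 became 1 with no doublets removed and 1 under each per-cell marker gate. In mast cell-like cells the newborn-higher count of 4 became 1 with no doublets removed, 0 under the per-cell gate, 1 under the gate without the milk list and 2 with a limit of 50 UMIs, and the adult-higher count of 0 became 1 with no doublets removed. In fibroblast-like cells the adult-higher count of 1 became 0 under both gates, under median-of-ratios scaling and with the unnamed fibroblast clusters, and 2 at 2-fold. Towards newborn, FGF16 was added under median-of-ratios scaling and at 2-fold. The log2 ratio of BMP1 in mast cell-like cells reversed to -0.0127 under the per-cell gate. The cause was not tested. Of 220 log2 ratios between stages recomputed under the alternatives, 193 stayed the same, 26 moved and 1 reversed. Of 490 levels in a class 124 moved, 63 of them with the denominator without mitochondrial, ribosomal and milk genes and 40 under the per-cell gate. Of 164 shares of cells 116 moved with the thinning depth, and of 22 spreads among clusters 7 moved, 4 at resolution 0.5 and 3 at resolution 2. The gate without the milk list, both changes of fibroblast clusters and the split of adult endothelium were chosen after the data were seen. No paired analysis was possible because each stage is 1 library. Depth limits the adult fibroblast-like class, where 20 UMIs correspond to 30.6 CPM.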
